A study of Homo sapiens with 18 samples.

Results

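The genes of the cytosolic ribosomal proteins were followed in a neuroblastoma cell line and in 5 lines derived from it that grow in the presence of entrectinib, an inhibitor of the TRK, ROS1 and ALK kinases. A gene was taken when its Ensembl identifier in the deposited table maps, in GENCODE release 29, to a protein-coding symbol made of RPL or RPS and a digit, or to RPLP0, RPLP1, RPLP2 or RPSA, and symbols of the S6 kinases and those with a hyphen were left out. The rule gives 88 symbols, of which 87 have a row among the 63657 rows of the table; RPS4Y2 was not analysed here. The 87 are 43 proteins of the large subunit, 31 of the small subunit, the 3 proteins of the acidic stalk, 9 paralog copies such as RPL22L1, and RPS19BP1, which binds RPS19 and is not itself a ribosomal protein. The 43, 31 and 3 are called the core genes below.

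RNA was measured in 18 libraries, 3 per line. The parental line, SY5Y_BR6, is a TrkB-expressing derivative of SH-SY5Y, an established neuroblastoma line; it was not selected with the drug. ER5, ER28, ER29, ER42 and ER47 each came from 1 subcutaneous SY5Y-TrkB tumour in athymic nu/nu mice that shrank or stopped growing under oral entrectinib at 60 mg/kg and then grew again. ER5, ER28 and ER29 came from mice dosed every 4 hours, and ER42 and ER47 from mice dosed every 6 hours. In culture these 5 lines were taken from 10 nM up to 750 nM entrectinib and were kept in 200 nM until harvest, so that resistance, passage through a mouse, culture history and drug at harvest cannot be told apart in any comparison with the parental line. Whether the 3 libraries of 1 line were separate cultures is not stated in the labels. The spread between libraries, which sets every p-value here but those of the dosing interval, may be technical.

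The eukaryotic ribosome joins a small subunit, which reads the mRNA, to a large subunit, which forms peptide bonds, and its core proteins are needed in fixed proportions. Their mRNAs carry a terminal oligopyrimidine (TOP) tract: they begin with a C followed by an unbroken run of C and T, through which the kinase mTORC1 and the protein LARP1 control their translation and stability. MYC is known to drive transcription of ribosomal protein genes, and several free ribosomal proteins, RPL5 and RPL11 above all, bind MDM2 and stabilise p53.

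The TOP tract lies at the start of the mRNA, so RefSeq sequences around annotated starts (GRCh38.p14) are shown for genes described below. Each runs from 15 bases before the start to 15 bases from it, and capitals mark the run of C and T that begins with a C exactly at the start base. The first set holds core genes, ending with RPS7, whose run is short. RPS7 also behaved differently in ER5, but a link with its run was not tested. RPL4, whose annotated start has no such run, had the largest rise in ER5.
RPL11 (chr1:23691791-23691820, + strand): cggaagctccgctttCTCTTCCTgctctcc
RPL34 (chr4:108620561-108620590, + strand): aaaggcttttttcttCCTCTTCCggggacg
RPL13A (chr19:49487593-49487622, + strand): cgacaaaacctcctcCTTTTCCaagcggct
RPS18 (chr6:33272060-33272089, + strand): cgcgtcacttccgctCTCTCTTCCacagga
RPS27 (chr1:153990747-153990776, + strand): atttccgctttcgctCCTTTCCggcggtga
RPS7 (chr2:3575245-3575274, + strand): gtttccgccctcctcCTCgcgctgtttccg
The second set pairs core genes with their paralog copies, which is where the levels parted most.
RPL22 (chr1:6199581-6199610, − strand): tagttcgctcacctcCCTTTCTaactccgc
RPL22L1 (chr3:170870181-170870210, − strand): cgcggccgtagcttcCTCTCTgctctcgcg
RPL26 (chr17:8383179-8383208, − strand): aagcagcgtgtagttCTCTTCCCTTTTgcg
RPL26L1 (chr5:172958714-172958743, + strand): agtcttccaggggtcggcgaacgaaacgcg
RPL36A (chrX:101390996-101391025, + strand): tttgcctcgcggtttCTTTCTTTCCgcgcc
RPL36AL (chr14:49620612-49620641, − strand): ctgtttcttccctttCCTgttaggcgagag
RPS27L (chr15:63157463-63157492, − strand): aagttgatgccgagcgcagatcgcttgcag
RPL7L1 (chr6:42879601-42879630, + strand): cggaagtgcggcgccgtagctaggagcgga

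A start was given for 69 of the 87 genes. Of these, 48 (69.6%) had at least 1 annotated start with a run of 5 or more, against 1404 (5.14%) of the 27305 genes in the RefSeq table. RPL22L1 had such a run of 6 bases, whereas the starts given for RPL26L1, RPS27L and RPL7L1 did not begin with a C. The run depends on the exact base annotated as the start: RPL4, a core gene, has none by this count. The letters CCGGAAG, searched on both strands from 250 bases before each start to 50 bases after it, were found in 24 of the 69 genes (34.8%) and in 12.2% of all genes.

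The 18 libraries were first compared for features that touch the results. Values are FPKM, reads scaled to the length of the gene and the total of the library, as deposited, and genes at 1 or more numbered 16041 to 18265 per library. Read totals are not given. The steps between the lowest FPKM values, at 522 to 746 genes per library, put the relative depth at 1 to 1.95, with 11.7% to 27.9% of those genes at the commonest ratio. Of the noradrenergic neuroblastoma markers, PHOX2A, HAND2, GATA3, ISL1, TH and DBH summed to 1099 to 1965 FPKM per library, the endothelial markers to at most 0.645, with PECAM1 at 0 throughout, the 5 macrophage markers to at most 2.19, the 4 Schwann or glial markers to 1.39 to 5.07, and the 6 fibroblast markers to 21.8 to 42.4, of which PDGFRB reached 19.3. The fibroblast sum moved with the lines: it was 21.8 to 26.8 FPKM in the parental libraries, 34.8 to 38.3 in ER5, 39.3 to 42.4 in ER28, 33.6 to 35.8 in ER47, 26.3 to 31.5 in ER29 and 22.2 to 30.5 in ER42. Of 5 tested, 4 were called higher and 1 lower in ER5. The part of such cells in the differences below was not tested. NTRK2, which encodes TrkB, stood at 411 ± 9.86 FPKM (SD, n = 3) in the parental line and between 199.9 ± 16.3 in ER29 and 391 ± 39.9 in ER47.

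Single entries of the table were at 0 where the same gene was abundant in the other libraries. The RNA 7SK, at 97664 to 192002 FPKM elsewhere, was listed at 0 in ER5 replicates 1 and 2 and in ER28 replicate 3, which are also the libraries with the highest ribosomal protein gene levels of their lines. Results are therefore also given without these 3 libraries, an alternative chosen after the data were seen, in which ER5 rests on 1 library that is assumed to vary like the other lines. RPS29, of the small subunit, was listed at 0 in parental replicate 3 and at 1355 and 1279 FPKM in the others; it enters the counts below but is given no fold change. Its other libraries ran from 511 in ER42 replicate 3 to 2401 in ER5 replicate 1.

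A gene was tested when it reached 1 FPKM in at least 3 libraries, which 19799 genes did, among them 83 of the 87. The 4 others include RPL10L, at 0 in all 18 libraries, RPL3L, the muscle form of RPL3, and RPS4Y1. In the tested genes, pseudogenes took little: 1140 pseudogene rows of these genes summed to 492 to 792 FPKM per library, and of the tested genes RPS2 had the largest share in pseudogenes, 8.43%, mostly in RPS2P46.

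Core genes were abundant and kept nearly the same order in every line. In the parental line the 76 tested core genes ran from 310.6 FPKM for RPL22 to 2886 for RPS27, with a median of 1053. In ER5 the span was 492 (RPL22) to 5755 (RPS27), with a median of 1895, and in ER42 it was 357 (RPS26) to 3077 (RPS27), with a median of 1126. Spearman's rho between the parental line means and those of each resistant line lay between 0.92 and 0.95 over these 76 genes, a description only, as the genes share libraries. The 5 highest means over all 18 libraries were those of RPS27, RPS3, RPS18, RPL37A and RPL39, and the 5 lowest of tested genes those of RPL39L, RPS19BP1, RPL26L1, RPS27L and RPL36AL. FPKM is per length, so these levels can be set against each other.

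Together the 87 genes held 8.59 ± 0.678% (SD, n = 3) of the FPKM sum in the parental line, 15.2 ± 2.45% in ER5, 11.5 ± 0.354% in ER47, 11.4 ± 0.263% in ER29, 11.2 ± 1.88% in ER28 and 9.29 ± 0.340% in ER42. The sum itself moves with entries such as 7SK, and over protein-coding genes alone the shares were 16.3 ± 0.372%, 28.3 ± 2.04%, 23.2 ± 0.961%, 22.1 ± 1.16%, 19.9 ± 1.11% and 18.3 ± 1.33% in the same order. On the second basis every ER5 library was above every library of the other lines, whereas on the first ER5 replicate 3 (12.4%) was below ER28 replicate 3 (13.3%). The geometric mean of the 82 tested genes with no 0 (of FPKM + 1) was 839, 807 and 807 in the 3 parental libraries, 1417, 1426 and 1152 in ER5, 1050.2, 1022 and 959 in ER47, 1074, 908 and 942 in ER29, 944, 838 and 994 in ER28, and 898, 821 and 739 in ER42. All 3 libraries of ER5, ER29 and ER47 were above all 3 parental ones, the lowest ER28 library lay just below the highest parental one, and ER42 straddled the parental values. In bulk RNA, fewer cells of a type and less RNA per cell cannot be told apart.

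**Figure D1:**
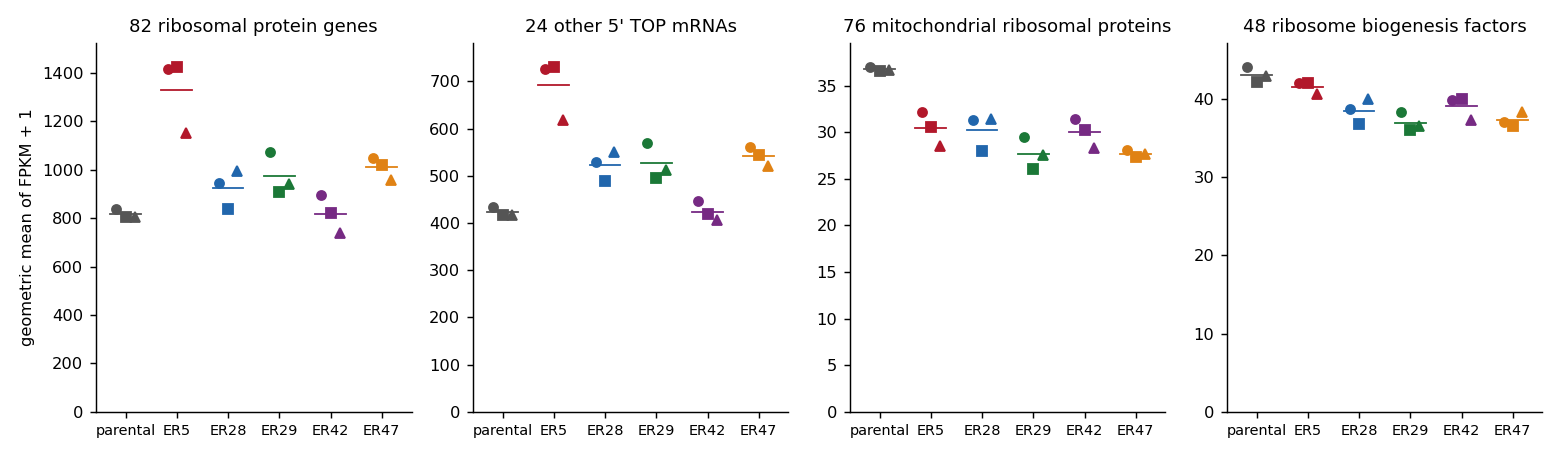
Geometric mean of FPKM + 1 (y axis, from 0) in each library (circle, square and triangle for replicates 1, 2 and 3) of each line (x axis), with the line mean as a bar, for 4 gene lists. Ribosomal protein genes reach 1426 in ER5 and 739 to 898 in ER42, the other TOP mRNAs have a like order of lines, and the mitochondrial ribosomal proteins are below the parental level in all 5 resistant lines.

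ER5 had the highest levels. Against the parental line, 74 of the 83 tested genes were higher (89.2%; 24.5% of all 19799 genes tested were called higher) and 2 were lower (27.5% of all genes, 52% in either direction), by limma on log2(FPKM + 1) with Benjamini-Hochberg adjustment over all genes tested and a threshold of 0.05. The median difference was 0.81 on the log2 scale, a 1.75-fold change, where the median of all genes tested was 0.01. All 43 large subunit genes, 27 of 30 tested small subunit genes and the 3 stalk genes were higher. The 3 small subunit genes that were not are RPS7, RPS26 and RPS29. Without the libraries with 7SK at 0, 60 were higher and 2 lower, with a median of 0.59, and with quantile normalisation 53 were higher and 5 lower, with a median of 0.28.

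RPL4, a large subunit protein whose long extension lines the exit tunnel, had the largest rise. Its FPKM was 1386, 1362 and 1369 in the parental libraries and 3328, 3549 and 2783 in ER5. The groups did not overlap, and the difference was 1.22 ± 0.10 (SE, log2 scale; limma adjusted p = 1.2e-07). RPL11, which with RPL5 and 5S rRNA forms the particle that binds MDM2, was at 1128, 1075 and 1069 FPKM in the parental line and at 2376, 2516 and 2112 in ER5 (1.09 ± 0.09, limma adjusted p = 1.7e-07). RPL5 moved with it, from 734, 695 and 689 to 1384, 1439 and 1111 FPKM (0.88 ± 0.11, limma adjusted p = 6.5e-06). RPL13, of the large subunit, completes the 3 largest rises at 1.09 ± 0.13 (limma adjusted p = 3.4e-06).

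The small subunit genes of ER5 followed the same course. RPS27, the most abundant of all, had 2989, 2841 and 2828 FPKM in the parental line and 6250.3, 6449 and 4565 in ER5 (0.98 ± 0.16, limma adjusted p = 9.8e-05). RPS6, the substrate of the S6 kinases, had 1319.9, 1210.0 and 1203 FPKM against 2364, 2218 and 2039 (0.82, limma adjusted p = 1.3e-05). In both genes replicate 3 was the lowest ER5 library, as it was in 80 of the 83 tested genes, yet it stayed above every parental library.

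The stalk proteins recruit elongation factors to the ribosome. RPLP0, the stalk base, had 1418, 1286 and 1280.0 FPKM in the parental line and 2359, 2360.0 and 1993 in ER5 (0.75 ± 0.10, limma adjusted p = 1.8e-05). RPLP1 was at 1053, 1021 and 1015 against 1752, 1713 and 1430.0 FPKM (0.66 ± 0.10, limma adjusted p = 3.6e-05), and RPLP2 at 1108, 1107 and 1106 against 1993, 2015 and 1612 FPKM (0.75 ± 0.12, limma adjusted p = 0.0001). The stalk genes thus differed by amounts near the median of the list.

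**Figure D2:**
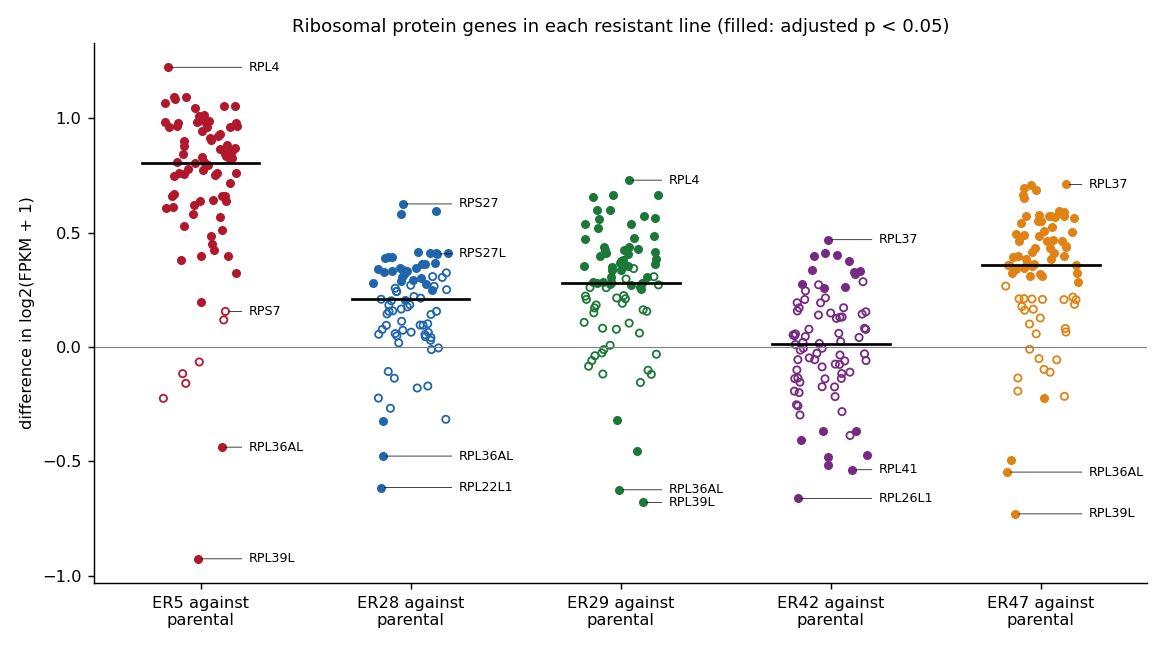
Difference in log2(FPKM + 1) from the parental line (y axis) for 82 tested genes in each resistant line (x axis; RPS29 is left out); filled points passed an adjusted p of 0.05, open points did not, and black bars are medians. The median falls from 0.81 in ER5 to 0.01 in ER42, and RPL39L and RPL36AL are the lowest genes in ER5, ER29 and ER47, with RPS19BP1 next to them.

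ER47, ER29 and ER28 were higher than the parental line by smaller amounts. In ER47, 53 genes were higher (18.8% of all genes tested) and 4 lower (28.1%), with a median difference of 0.36. In ER29, 44 were higher (23.1% of all genes) and 4 lower (27.1%), with a median of 0.28. In ER28, 30 were higher (14.6% of all genes) and 3 lower (20.9%), with a median of 0.21. Of all genes, 35.5% were called in ER28 in either direction, 50.2% in ER29 and 46.9% in ER47. The median over all genes tested was between −0.01 and 0.04 in these comparisons, which all use the same 3 parental libraries. The count in ER28 fell to 18 called without ER28 replicate 3, and to 21 without parental replicate 2, from 33, and that in ER29 to 31 without ER29 replicate 1, from 48. With quantile normalisation the medians were 0.18, 0.13 and 0.07 in ER47, ER29 and ER28, with 41, 39 and 31 genes higher and 7, 9 and 6 lower.

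RPL37 and RPL4, of the large subunit, were among the largest rises in these lines. RPL37 had 711, 733 and 781 FPKM in the parental line, 1238, 1267 and 1138 in ER47, 1257, 1138 and 1115 in ER29, and 1090.4, 1064 and 1175 in ER28. No library of these lines overlapped the parental ones, and the differences were 0.71, 0.66 and 0.58 (SE 0.08 each; limma adjusted p = 4.2e-06, 7.5e-06 and 4.7e-05). RPL4 ranged from 1955 to 2469 FPKM in these 3 lines, with differences of 0.69, 0.73 and 0.59 in the same order (limma adjusted p = 6e-05, 3e-05 and 0.00036). RPL34, RPL11 and RPL37 had the 3 largest rises in ER47, and RPL4, RPL13A and RPL11 in ER29.

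In ER28 the largest rise was that of RPS27. Its 3 libraries held 4385, 3854 and 5216 FPKM, all above the parental 2828 to 2989 (0.63 ± 0.16, limma adjusted p = 0.0064). With quantile normalisation it was 0.22 and not called (limma adjusted p = 0.28). RPS27 is on chromosome 1 at a place where the 20 nearest other tested protein-coding genes, 10 on each side, had a median difference of 0.20 in ER28 and between −0.35 and −0.20 in the other 4 lines. RPS27 was not called in ER28 against the other 4 resistant lines (0.08, limma adjusted p = 0.69).

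ER42 was the line nearest to the parental one. There, 12 genes were higher (14.5% against 16.9% of all genes tested) and 8 lower (22.8% of all genes, 39.8% in either direction), with a median difference of 0.01, so the share called higher was near the background. RPL37 had 1066, 1007 and 1006 FPKM, above all parental libraries (0.47 ± 0.08, limma adjusted p = 0.00032), and RPL34 had 1514, 1377 and 1207 against 1056, 1007 and 1003 (0.41 ± 0.11, limma adjusted p = 0.0064). Genes went both ways in this line. RPL41, which encodes the smallest ribosomal protein, had 2486, 2467 and 2358 FPKM in the parental line and 1791, 1834 and 1440.0 in ER42 (−0.54 ± 0.16, limma adjusted p = 0.014), a call lost without ER42 replicate 3. RPS2 (−0.37) and RPS26 (−0.37) were among the other core genes called lower (limma adjusted p = 0.019 and 0.024). With the protein-coding total as the scale, 34 genes of ER42 were higher and 8 lower, and with a trend in gene length removed 22 and 8. Quantile normalisation gave 22 and 18.

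Over the mean of the 5 resistant lines, 57 genes were higher than in the parental line (23.9% of all genes tested) and 5 lower (28.9%), with a median of 0.34, or 42 higher and 8 lower with a median of 0.13 under quantile normalisation. The rises were largest in RPL4 (0.71), RPL37 (0.68), RPL11 (0.65), RPL34 (0.64) and RPS12 (0.57, a small subunit protein), and the falls in RPL39L (−0.50), RPL36AL (−0.50), RPS19BP1 (−0.40), RPL22L1 (−0.30) and RPL26L1 (−0.18), each past the threshold by limma. The calls of RPL22L1 and RPL26L1 were lost with quantile normalisation (−0.03 and −0.05), and that of RPL26L1 also with the protein-coding total and without parental replicate 1. The 5 that fell are 4 paralog copies and the RPS19 binding protein, and no core gene was called lower. Called higher in each of the 5 lines were RPL4, RPL7, RPL11, RPL22, RPL23, RPL26, RPL34, RPL36A, RPL37, RPS13 and RPS25 (of all genes tested, 5.63%). RPL36AL alone was called lower in all 5 (of all genes tested, 12.3%).

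**Figure D3:**
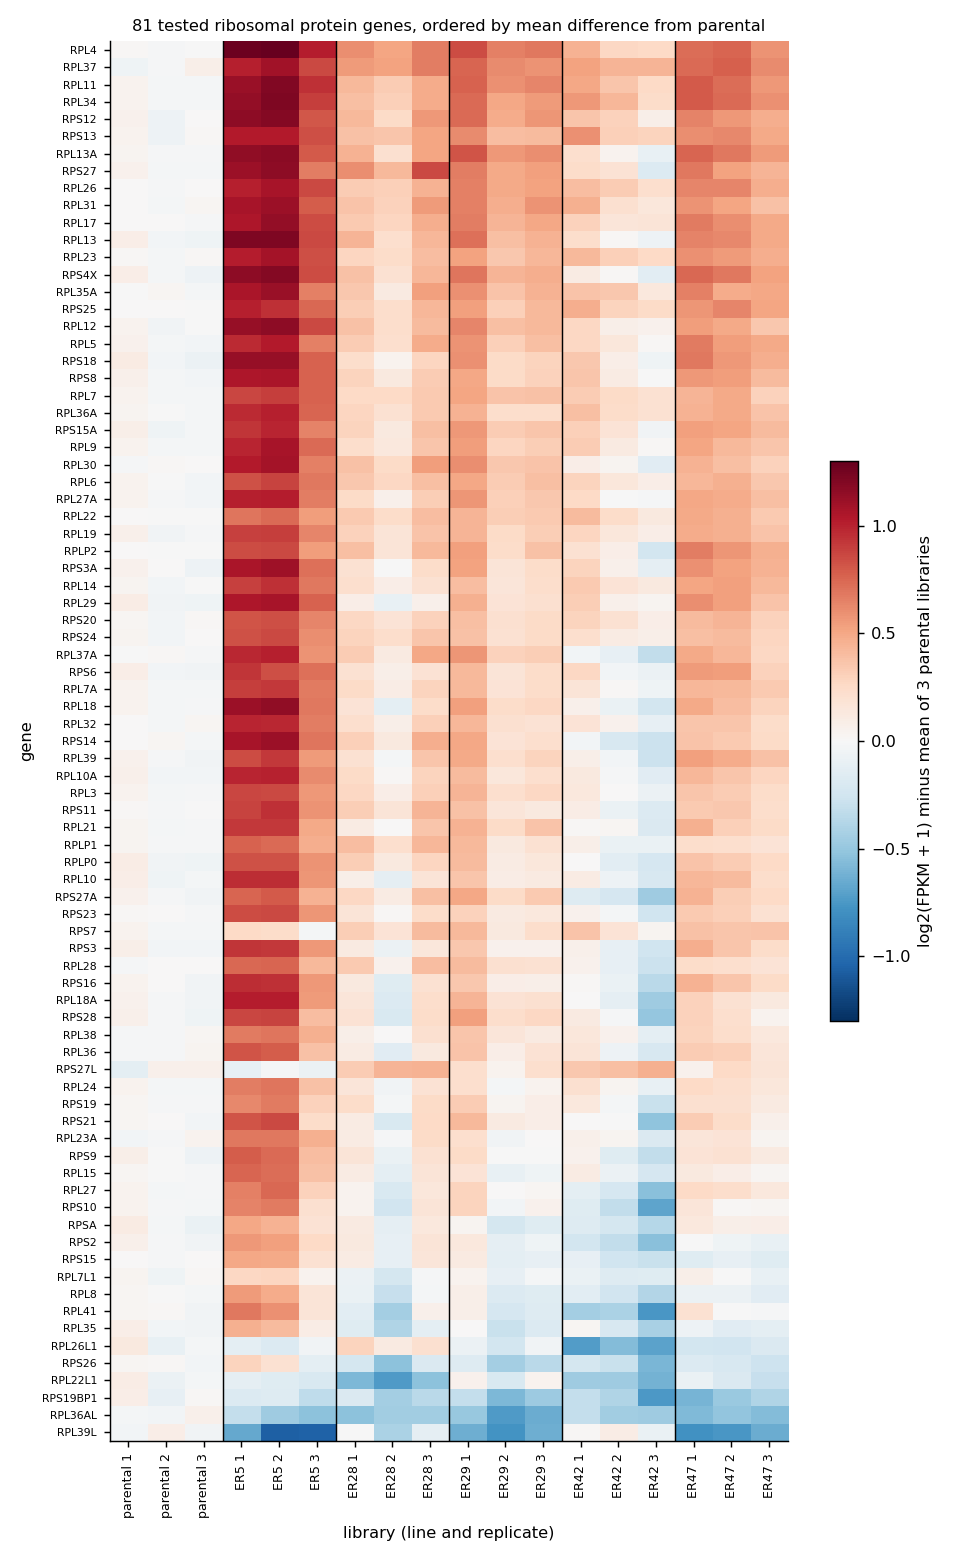
Log2(FPKM + 1) minus the mean of the 3 parental libraries (colour) for 81 tested genes (rows, ordered by their mean difference over the resistant libraries) in each of the 18 libraries (columns). ER5 columns are red in nearly all rows, ER42 columns change from red to blue down the rows, and the paralog copies RPL39L, RPL36AL, RPL22L1 and RPL26L1 lie at the bottom.

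The resistant lines differed among themselves. An F test over the 5 lines called 79 of the 83 genes (52.3% of all genes tested were called), the 4 others being RPS7, RPL36AL, RPS19BP1 and RPS29. ER5 against the other 4 resistant lines had 76 higher (17.9% of all genes) and 2 lower (16.8%), with a median of 0.56, and ER42 against the other 4 had 2 higher (18.8% of all genes) and 73 lower (16.8%), with a median of −0.38. ER28 against the other 4 had 3 higher (14.1%) and 16 lower (10.1%), ER29 had 1 higher (7.95%) and 0 lower (7.45%), and ER47 had 0 in either direction (1.55% and 2.12%, 3.67% in all). At an unadjusted limma p under 0.05 there were 1 higher and 5 lower in ER29, and 1 higher and 2 lower in ER47; quantile normalisation called 3 in ER47, all higher. These 5 contrasts share libraries, since each line serves in the reference of the other 4. Without the libraries with 7SK at 0, ER5 had 24 higher and 2 lower, with a median of 0.37, while ER42 had 2 higher and 56 lower, with a median of −0.32. With quantile normalisation the medians were 0.17 in ER5 and −0.16 in ER42.

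The dosing interval of the mouse gave no call. With each line as 1 value, 6 hours against 4 hours had 0 of 83 genes called by limma (3 genes of all tested were called higher, 0.0152%, and 0 lower), and the median difference was −0.22. No gene of the 83 passed an unadjusted p of 0.05 either, the smallest adjusted p was 0.83, and with 2 lines against 3 the comparison sets ER42 and ER47 against lines that hold ER5.

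Beside the common course, the paralog copies went their own way. The 6 tested copies had a mean correlation across the 18 libraries, after removal of line means, of 0.23, against 0.91 for pairs of the 75 core genes with no 0 (a description, with libraries and scale in common). A low value was not particular to the copies. Of the lists described below, it was 0.22 for ribosome biogenesis factors, 0.22 for snoRNA host genes and 0.38 for mitochondrial ribosomal proteins, but 0.76 for the other TOP mRNAs. The level of each copy is given as a share of the pair's summed FPKM, which a common scale factor does not change. RPL22L1 held 24.9 ± 1.11% of the RPL22 pair in the parental line, the largest share of any copy, and 14.6 ± 0.265% in ER28, 15.8 ± 0.715% in ER5, 16.2 ± 0.836% in ER42, 17.7 ± 0.385% in ER47 and 20.1 ± 1.24% in ER29 (SD, n = 3 each). No resistant library reached the lowest parental share.

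Both sides of that pair changed. RPL22 had 312, 310.1 and 309 FPKM in the parental line and between 339 and 519 in the resistant libraries, and was called higher in all 5 lines. RPL22L1 had 110.5, 97.6 and 101 FPKM in the parental line. It was at 68.6, 61.5 and 71.0 in ER28 (−0.61 ± 0.08, limma adjusted p = 2.9e-05) and at 74.4, 74.5 and 66.7 in ER42 (−0.52 ± 0.08, limma adjusted p = 0.00016). In ER29 it was at 107, 89.96 and 106 FPKM and was not called (−0.03, limma adjusted p = 0.77).

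RPL36AL, the autosomal copy of the X-linked RPL36A, had 89.1, 88.3 and 95.0 FPKM in the parental line. Its resistant libraries ran from 54.3 in ER29 replicate 2 to 73.1 in ER42 replicate 1, so that none overlapped the parental line. The difference lay between −0.62 in ER29 (limma adjusted p = 2.8e-06) and −0.41 in ER42 (limma adjusted p = 0.00028). RPL36A rose at the same time, from 1322 to 1378 FPKM to 1547 to 2718, and the copy's share went from 6.32 ± 0.335% to between 2.57 ± 0.189% in ER5 and 4.01 ± 0.0340% in ER42.

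RPL39L, a copy of RPL39 best known from the testis, divided the lines. It had 27.7, 30.1 and 27.3 FPKM in the parental line, 17.5, 13.0 and 13.2 in ER5, 17.97, 16.2 and 17.9 in ER29, and 15.97, 16.4 and 17.8 in ER47. The differences were −0.93 ± 0.11, −0.68 ± 0.11 and −0.73 ± 0.11 (limma adjusted p = 4.3e-06, 0.00011 and 6.4e-05). ER28 had 28.2, 21.1 and 26.0 FPKM and was not called. ER42 overlapped the parental line, with 28.7, 30.4 and 26.7 FPKM (0.01, limma adjusted p = 0.95), and was higher than the other 4 resistant lines by 0.64 (limma adjusted p = 6e-05). The 20 nearest tested genes of RPL39L on chromosome 3 had a median difference of 0.36 in ER42 and between −0.16 and −0.09 in the other lines.

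RPL26L1, on chromosome 5, was lowest in ER42. Its FPKM was 29.1, 24.9 and 26.1 in the parental line, 15.7, 17.7 and 16.01 in ER42, and 32.7, 28.9 and 30.9 in ER28. ER42 lay below all other libraries (−0.66 ± 0.07, limma adjusted p = 6.4e-06) and ER28 was higher than parental (0.20, limma adjusted p = 0.037), while ER47 was lower (−0.22, limma adjusted p = 0.018). Its 20 nearest tested genes had a median of −0.59 in ER42, close to the gene's own difference, and between −0.03 and 0.22 in the other lines.

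RPS27L, a copy of RPS27 known as a p53 target, had 22.8, 26.1 and 26.2 FPKM in the parental line, 31.6, 34.3 and 34.6 in ER28, and 32.1, 33.2 and 34.9 in ER42. Both were higher than parental (0.41 ± 0.07 and 0.40 ± 0.07, limma adjusted p = 0.00032 and 0.00037). In ER5, where RPS27 rose, RPS27L was at 23.2, 24.7 and 23.7, within the parental range, and lower than in the other 4 resistant lines (−0.35, limma adjusted p = 0.00018). RPL7L1, a copy of RPL7, had 80.8, 75.8 and 79.6 FPKM in the parental line and was called in ER5 alone, at 94.9, 95.5 and 81.0 (0.19 ± 0.07, limma adjusted p = 0.035). As RPL7 rose, the copy's share fell from 10.8 ± 0.254% to between 7.18 ± 0.314% in ER5 and 8.43 ± 0.459% in ER28. RPL39L, RPL26L1 and RPS27L were all below the parental share in ER5, ER29 and ER47. In ER28 only RPL39L of these was below. In ER42 RPL26L1 was below, RPL39L overlapped the parental share and RPS27L was above it.

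**Figure D4:**
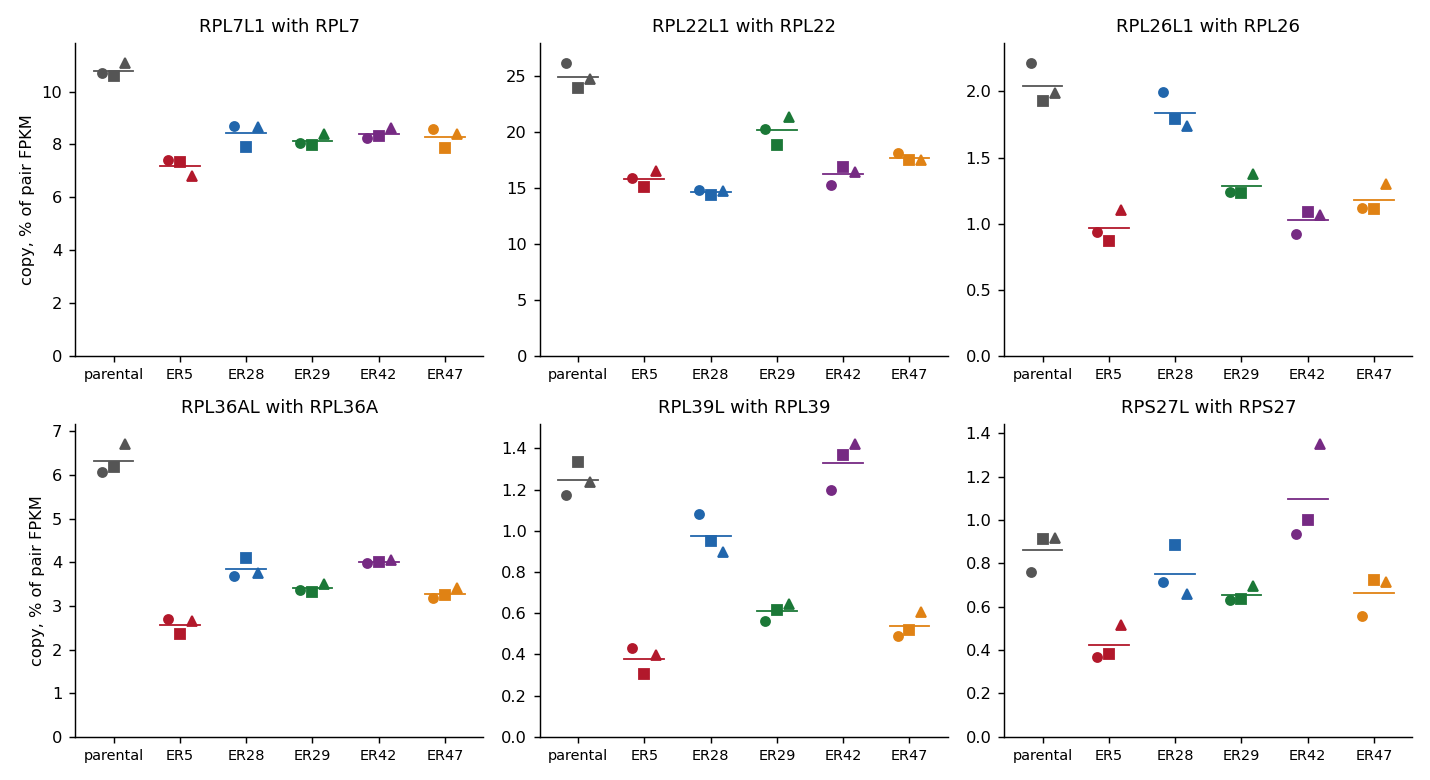
Share of each paralog copy in the summed FPKM of the copy and its partner (y axis, percent, from 0) in each library (circle, square and triangle for replicates 1, 2 and 3) of each line (x axis), with line means as bars. RPL22L1, RPL36AL and RPL7L1 are below the parental share in every resistant library, whereas RPL39L in ER42 overlaps the parental values.

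RPS19BP1 was not among the genes that rose either. Its FPKM was 29.6, 25.9 and 28.3 in the parental line and 16.2 to 24.7 in the resistant libraries. It was called lower in ER28, ER29, ER42 and ER47 (−0.49 to −0.33), the ER28 call being lost without parental replicate 1 or 3, without ER28 replicate 2 or 3, with no filter, and with median-of-ratios scaling or quantile normalisation, and not in ER5 (−0.22, limma adjusted p = 0.1). RPS26, a small subunit protein near the mRNA exit channel, was the core gene with the lowest mean difference (−0.22, limma adjusted p = 0.058), with 467, 463 and 446 FPKM in the parental line and 304 to 408 in the resistant lines other than ER5.

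RPS7, like RPS26, was a core gene not called higher in ER5. It had 1336, 1274 and 1269.8 FPKM in the parental line, 1545, 1526 and 1266 in ER5, 1684, 1655 and 1669 in ER47, 1733, 1416 and 1512 in ER29, 1616, 1461 and 1723 in ER28, and 1668, 1460.4 and 1325 in ER42. ER5 overlapped the parental line (0.16 ± 0.11, limma adjusted p = 0.25), while ER28 (0.30, limma adjusted p = 0.039) and ER47 (0.37, limma adjusted p = 0.011) were higher. Scaled to the mean of the tested ribosomal protein genes, RPS7 in ER5 was lower by 0.54 on the log2 scale (limma adjusted p = 6e-08). The 19 nearest tested genes of RPS7, at the end of chromosome 2, had a median difference of −0.40 in ER5 and between −0.01 and 0.11 in the other lines. Gene copy number was not measured in these files, and its part in the values of RPS7, RPL26L1 and RPL39L was not tested.

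RPS27A, which encodes ubiquitin joined to a small subunit protein, also lies on chromosome 2 and was low in ER42. It had 749.6, 712 and 699 FPKM in the parental line, 1219, 1248 and 987 in ER5, and 642, 617 and 522 in ER42. All ER42 libraries were below the parental ones, but the gene was not called (−0.28 ± 0.11, limma adjusted p = 0.052). Over the alternatives, the limma adjusted p ran from 0.00019 to 0.21, with 0.035 for the replicate number as a block. ER42 was lower than the other 4 resistant lines by 0.69 (limma adjusted p = 2.9e-05). Its 20 neighbours had a median of 0.08 in ER42. RPL35A, near the end of chromosome 3, had 698, 716 and 691 FPKM in the parental line and 908, 896 and 769 in ER42 (0.29, limma adjusted p = 0.082), beside a median of 0.45 for its 11 neighbours. Over the 75 core genes with no 0, Pearson's r between a gene's difference, less the list median, and the median of its neighbours was between 0.26 in ER29 and 0.44 in ER42, a description across genes of the same libraries.

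**Figure D5:**
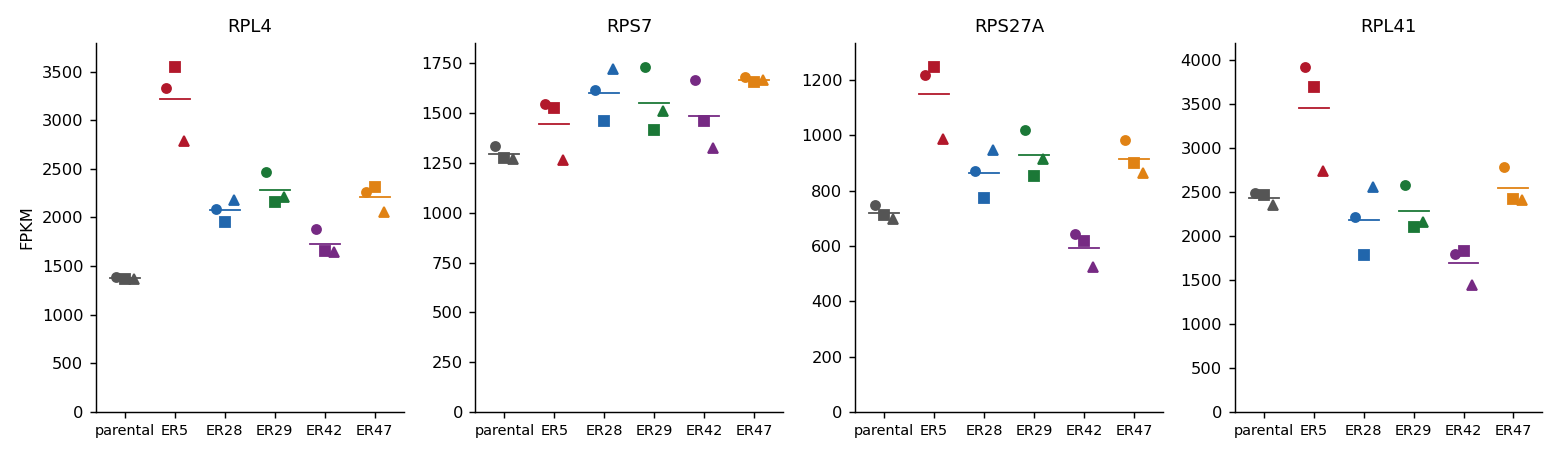
FPKM (y axis, from 0) of 4 genes in each library (circle, square and triangle for replicates 1, 2 and 3) of each line (x axis), with line means as bars. RPL4 has the common pattern with ER5 on top, RPS7 lacks the ER5 rise, and RPS27A and RPL41 are lowest in ER42.

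Other genes of the translation machinery were read from gene lists. The 24 other TOP mRNAs, which encode elongation and initiation factors and binding partners of the ribosome, had 24 higher and 0 lower in ER5 (median 0.67), 18 and 0 in ER47 (0.34), 15 and 0 in ER29 (0.27), 16 and 0 in ER28 (0.35), and 5 and 4 in ER42 (0.02, and 0.11 with quantile normalisation). As shares higher these are 100%, 75%, 62.5%, 66.7% and 20.8% of the list, against 24.5%, 18.8%, 23.1%, 14.6% and 16.9% of all genes tested, so the ER42 share was near the background. In ER42 against the other 4 resistant lines, 0 were higher and 22 lower (median −0.33), where 16.8% of all genes were lower. EEF2, the translocation factor, was at 883 ± 41.1 FPKM (SD, n = 3) in the parental line, 1957 ± 189.7 in ER5 and 926 ± 82.1 in ER42. RACK1, a small subunit protein outside the symbol rule, was at 1153 ± 52.7 FPKM in the parental line, 3038 ± 362 in ER5 (1.39 ± 0.10, limma adjusted p = 4.1e-08) and 873 ± 68.9 in ER42 (−0.40 ± 0.10, limma adjusted p = 0.007). The neighbours of RACK1 on its chromosome were not followed, and a part of gene copy number in its ER42 value was not tested.

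FAU, a ribosomal protein gene joined to a ubiquitin-like sequence and outside the rule, moved less. It stood at 574 ± 19.5 FPKM in the parental line and rose by 0.34 in ER5 (limma adjusted p = 0.025), with no other call. Its ER5 rise was smaller than the list median of 0.81.

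Mitochondrial ribosomal proteins, which are encoded in the nucleus and work in the mitochondrion, were mostly lower. Of 76 tested, 3 were higher and 57 lower over the mean of the 5 lines (median −0.35), with 60 lower in ER47, 58 in ER29, 50 in ER42, 45 in ER5 and 43 in ER28. The 75% lower over the mean stands beside 28.9% of all genes tested and 40% of the protein-coding genes tested. Counts of this list under other scalings are not reported here, and those of the biogenesis factors below changed with quantile normalisation. MRPL36 was at 35.6 ± 1.61 FPKM in the parental line and 17.5 ± 0.722 in ER5 to 20.6 ± 2.86 in ER28, and MRPL12 at 131 ± 4.92 against 69.0 ± 5.57 in ER5. MRPS30 was among the 3 that rose, from 22.0 ± 0.712 to 34.7 ± 3.02 in ER5. Over protein-coding genes as a whole the median was −0.08.

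Factors that build ribosomes were counted in the same way. Of 48 tested biogenesis factors, 3 were higher and 27 lower over the mean of the 5 lines (median −0.17), but 13 were higher and 7 lower, with a median of 0.00, under quantile normalisation. The shares, 6.25% higher and 56.2% lower, stand beside 23.6% and 40% of the protein-coding genes tested. NOP10, of the H/ACA particles that modify rRNA, fell from 149.6 ± 2.80 FPKM to 86.0 ± 9.12 in ER5 and 74.0 ± 3.44 in ER29, whereas NOB1, the nuclease that completes 18S rRNA, rose from 25.8 ± 0.946 to 42.7 ± 2.77 in ER5. Of 15 RNA polymerase I genes, 3 were higher and 3 lower (median 0.05), or 10 and 0 with quantile normalisation (0.20). The 20% in each direction is below the 23.9% higher and 28.9% lower of all genes tested. Host genes of snoRNAs, many of which carry TOP tracts, had 10 of 15 higher (66.7%, against 24.5% of all genes) and 0 lower in ER5 (median 0.82) and 6 higher and 1 lower over the mean of the 5 lines (median 0.33).

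Genes of the kinase pathway that controls TOP mRNAs went both ways. Of 20 genes of TOR and TOP control, 4 were higher and 11 lower over the mean of the 5 lines (median −0.22), or 5 and 7 with quantile normalisation (−0.07). The 20% higher was near the 23.6% of protein-coding genes, of which 40% were lower, against 55% of this list. EIF4EBP1, which restrains the cap-binding protein EIF4E, was at 111 ± 3.30 FPKM in the parental line and 81.3 ± 7.76 in ER5, and EIF4E itself at 80.7 ± 2.51 against 50.6 ± 2.76. PDCD4, an inhibitor of the helicase EIF4A, rose from 95.6 ± 1.45 to 195 ± 12.8 FPKM. Of 10 S6 kinase genes, 1 was higher and 6 lower (median −0.29), 10% and 60%. Of 20 p53 targets, 7 were higher and 8 lower (median −0.04, and 0.04 with the protein-coding total). The share lower was 40%, as for protein-coding genes, and the share higher was 35%, against 23.6% of those genes. In ER5, CDKN1A fell from 18.6 ± 0.559 to 3.32 ± 0.473 FPKM, whereas BTG2 rose by 1.32 on the log2 scale (limma adjusted p = 0.00025).

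MYC, whose protein activates ribosomal protein genes, was at 42.9 ± 1.51 FPKM in the parental line, 134 ± 28.3 in ER5, 115 ± 26.5 in ER42, 105 ± 9.44 in ER29, 94.8 ± 2.62 in ER47 and 53.3 ± 3.16 in ER28. It was called higher in 4 lines and not in ER28 (0.30, limma adjusted p = 0.14). The order of the lines is not that of the ribosomal protein genes: ER42 was second in MYC and last of the resistant lines in these genes. MYCN was at 13.4 ± 0.441 FPKM in the parental line and 0.743 ± 0.152 in ER5. A part of either gene in these levels was not tested.

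Outside the rule, the genes whose log2(FPKM + 1) was most like the mean of the ribosomal protein genes over the 18 libraries were SLC25A6 (Pearson's r = 0.99), EEF1A1 (0.98), EIF3D (0.98), EIF4B (0.98) and POLR1D (0.98). The r is a description over libraries that fall into lines and share a scale.

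Ribosomal protein genes with and without a run of C and T at the start were set side by side, and the difference between them was not tested. In ER5 the 47 tested genes with a run of 5 or more had a median difference of 0.82, and the 20 with a shorter run or none 0.74. Of the first group 46 were higher and 0 lower, and of the second 14 and 1. The groups mix core genes with paralog copies. The first holds the copy RPL22L1, which was its only gene not called. The second holds the copies RPL26L1, RPS27L, RPL7L1 and RPL36AL, and RPS29 with its parental entry of 0. Its lower gene was RPL36AL, and RPL26L1, RPS27L, RPS29, RPS7 and RPS26 were not called. Among the other tested protein-coding genes the medians were 0.00 for the 732 with such a run and −0.08 for the 9335 without.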

How the data were processed

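RNA was taken with the Qiagen AllPrep kit, and libraries were made from total RNA with the KAPA RNA HyperPrep kit after removal of rRNA, per the labels' protocols. The FPKM values are those the authors deposited, 1 table for all 18 libraries. The submitters' processing notes name STAR 2.5.3, featureCounts, Subread 1.5.0-p1 and hg19; the tool and annotation behind the FPKM, the use of strand, and the read totals are not stated. Libraries were run on 2 kinds of sequencer, and which library on which is not stated, so no batch could be tested. Without strand, reads of overlapping genes cannot be told apart.

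Symbols came from GENCODE release 29, which held 82.5% of the identifiers. Genes at 1 FPKM or more in at least 3 libraries were tested on log2(FPKM + 1) with limma 3.58.1 in R 4.3.3 (1 coefficient per line, trended empirical Bayes, two-sided, Benjamini-Hochberg adjustment over 19799 genes); differences on this scale understate the change of low genes. The spread comes from libraries within lines, and the F test used 4 contrasts among the 5 resistant lines. For the dosing interval, limma was fitted to 5 line means. The fit was tested on simulated data. Ribosomal protein genes and all gene lists were chosen with earlier results of these data known. The genes named are the 5 highest and lowest in level and in difference over the 5 lines, the 3 largest rises and falls per line, the paralog pairs, the stalk, RPL5, RPL11, RPS27A, RPS19BP1, genes in segments described for these lines, and the extremes of each list; RPS2, RPS6, RPS26, RPS29 and the genes called in all 5 lines were added after their values were seen. A few genes that enter the counts are not reported here by name. Neighbours were taken from GENCODE positions on GRCh38. The alternatives were a pseudocount of 0.1, no filter, a filter at 5 FPKM, 4 other scalings, removal of a length trend, addition of pseudogene values, no variance trend with robust fitting, the replicate number as a block, and each library left out in turn.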

Additional observations from a re-analysis of the deposited data

Results flagged for a closer look

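The test of differences among the 5 resistant lines called 79 of the 83 tested genes, so the difference from the parental line was not of 1 size across lines. The medians against the parental line were 0.81 in ER5, 0.36 in ER47, 0.28 in ER29, 0.21 in ER28 and 0.01 in ER42, on the log2(FPKM + 1) scale. Leaving out each library in turn gave 74 to 80 genes called, and leaving out the 3 libraries with 7SK listed at 0 gave 63.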

How the results depend on the processing

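Against the parental line, the count of genes called changed by more than 1.5 times in ER28 with the protein-coding total (54 from 33), and in ER42 with quantile normalisation (40 from 20), the protein-coding total (42) and scaling to the mean of the ribosomal protein genes (45). Against the other 4 resistant lines, quantile normalisation gave 49 in ER5 (from 78), 5 in ER29 (from 1), 46 in ER42 (from 75) and 3 in ER47 (from 0), and scaling to that mean gave 35, 6, 43 and 1. That scaling removes the common change by construction. In ER28 against the other 4 the count was 19, and 11 with no filter, 54 with the protein-coding total, 38 with the length trend removed and 10 without the libraries with 7SK at 0; those libraries also took ER5 from 78 to 26, where fewer samples remain. The protein-coding total gave 1 in ER47. That total moved the median of all genes by −0.11 to 0.11. The share of the FPKM sum became 16.3% (parental), 28.3% (ER5), 19.9% (ER28), 22.1% (ER29), 18.3% (ER42) and 23.2% (ER47) over protein-coding genes. For every other change the cause was not tested.

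Leaving out 1 library gave 72 to 77 called in ER5, 18 to 41 in ER28, 31 to 53 in ER29, 16 to 30 in ER42, 44 to 58 in ER47 and 53 to 67 in the mean of the 5 lines. Against the other 4 lines it gave 76 to 79 in ER5, 7 to 33 in ER28 (7 without ER28 replicate 1, 8 without ER28 replicate 2, 33 without ER5 replicate 3), 1 to 3 in ER29, 53 to 77 in ER42 and 0 to 1 in ER47, and 0 for the dosing interval.

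Of the named genes, these changed direction in the mean of the 5 lines. With quantile normalisation RPL39 was −0.0010, RPL7L1 0.21, RPLP0 −0.071, RPS7 −0.058 and RPL10 −0.042. Scaled to the mean of the ribosomal protein genes, RPS27L was −0.060, RPLP0 −0.00078, RPS27A −0.015, RPS7 −0.029 and RPL10 −0.012. RPL7L1 was 0.071 with the protein-coding total and 0.016 with the length trend removed, and −0.044 to 0.0012 over the libraries left out. RPS7 in ER5 was −0.48, −0.54 and −0.030 with quantile normalisation, that scaling and the 7SK libraries left out. Pseudocount, pseudogene sums and the variance model changed no call of a named gene.

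Same-numbered libraries of different lines showed little common deviation (mean correlation 0.017, 5 of 45 pairs over 0.1). A low mean cannot decide whether the numbers pair the libraries in the ribosomal protein genes. Of the 83 tested genes, replicate 3 was lowest in 80 in ER5, 79 in ER42 and 70 in ER47. In ER29 it was lowest in 10, and in ER28 in 0. With the replicate number as a block the counts against the parental line were 76, 37, 55, 24 and 59 in ER5, ER28, ER29, ER42 and ER47. Depth is known only in relative terms, so low values carry no interval.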
